A study of Mus musculus with 18 samples.

Results

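Infarcted hearts from mice given DCA were compared with hearts from sham-operated mice: 6 libraries against 6, chosen by their labels alone, which are 12 of the 18 libraries of the study. The mice were C57BL/6. The sham group had the operation without an infarct and received vehicle, and the treated group had a myocardial infarction and received DCA at 10 mg/kg per day; a group of 6 infarcted hearts given vehicle serves below as the control for the drug. Every heart was taken 1 day after surgery, perfused, and RNA from its apex was sequenced from RNA Access libraries. DCA is written only as an abbreviation and is read here as deoxycholic acid, a bile acid, because the study's title names it together with the bile acid receptor TGR5 (gene Gpbar1). The sources used here do not give the age and sex of the mice, the route of the drug or the time of its first dose. Sham and DCA hearts differ in the operation and in the drug at once, so that the share of each in a difference between them cannot be told apart.

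An infarct deprives part of the left ventricle of oxygen and kills heart muscle cells. Within the first day, dying cells release their contents, endothelium and surviving cells make chemokines, and neutrophils and then Ly6C-high monocytes enter the tissue, while type I interferon signalling starts in cells that sense released nucleic acids. Surviving heart muscle cells lower their fatty acid oxidation and raise natriuretic peptides and other genes of the fetal and stressed heart, and TGR5, a receptor that raises cAMP, is known for damping cytokine release by macrophages.

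Values are FPKM, read abundance scaled to transcript length and library size, as deposited, and the 3 values given for a gene in a group are the lowest, the median and the highest of its 6 hearts. A difference is that of the mean log2(FPKM + 1), DCA minus sham, with its standard error (SE), and understates the change of genes with low FPKM. The adjusted p is limma's with Benjamini-Hochberg adjustment over the 11842 genes at 1 FPKM or more in at least 6 of the 12 hearts; genes under 0.05 are called higher or lower. A gene named as called kept its call under all 20 alternative settings tried (other scalings, filters, pseudocount and fits, and each heart left out in turn) unless a loss is stated. The labels do not say that each library is 1 mouse, so a p-value here measures only how far these samples spread. In bulk tissue, fewer cells of a type and less RNA per cell cannot be told apart.

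The 6 DCA hearts were far from alike. Of the genes tested, the share outside the range of the 6 sham hearts was 36.6%, 73.9%, 30.5%, 61.4%, 41.8% and 71.7% in DCA hearts 1 to 6. Sham hearts are themselves spread: set against the range of the other 5, a sham heart had 25% to 44.8% of genes outside, and on that same footing DCA hearts 1, 3 and 5 had 41.2%, 35.3% and 46.2%, DCA hearts 2, 4 and 6 had 76.0%, 64.4% and 73.9%. Pearson's r of a DCA heart with the sham mean, across genes, which are not independent replicates, ran from 0.906 in heart 2 to 0.99 in heart 3. Within the sham group r ran from 0.982 to 0.993 and within the DCA group from 0.925 to 0.992. The SD over hearts was larger in the DCA group for 8767 genes (74.0%), with a median ratio of 1.53. Depth, estimated from the spacing of low values, was 9600000 to 10700000 reads in sham hearts and 10100000 to 12900000 in DCA hearts.

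Of the 11842 genes, 1830 (15.5%) were called higher and 987 (8.33%) lower in DCA hearts, and 257 and 86 of them by a log2 difference of at least 1. The median difference over all genes was 0.05. All 6 DCA hearts lay above all 6 sham hearts in 747 genes (6.31%) and below them in 336 (2.84%). The balance of directions depends on the scaling: 65.0% of called genes were higher as deposited, 49.1% with median-ratio size factors and 45.6% after quantile normalization. The median over all genes shifted by -0.05 under the first and by -0.07 under the second. The count also rests on single hearts: leaving out 1 heart gave between 741 higher and 319 lower (both without sham heart 5) and 2623 higher and 1496 lower (both without DCA heart 3).

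**Figure D1:**
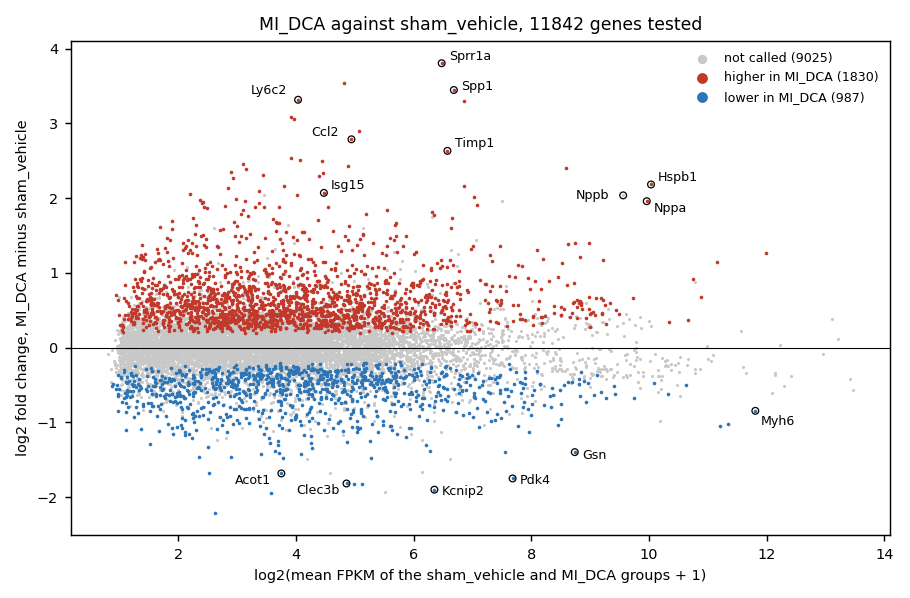
Difference between DCA and sham hearts against expression level, 1 point per gene tested; the x axis is log2 of the mean FPKM of both groups plus 1, the y axis the log2 difference, red and blue mark genes called higher and lower, grey those not called, and circles mark named genes. Calls in both directions occur from low to high levels, and the circled rises (up to 3.81, Sprr1a) lie further from 0 than the circled falls (down to -1.90, Kcnip2).

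Genes of the stressed and fetal heart had the largest rises, and also the widest spread over DCA hearts. Of 24 such genes, 22 were tested, 14 were called higher and 0 lower, with a median difference of 1.73. With array weights, which give less weight to hearts far from the rest of their group, 6 were called and the median was 0.75. Without sham heart 5 only 3 of the 14 calls were left, and without DCA heart 3 there were 19. The mean of the list on the log2 scale, set to 0 at the sham mean, was 0.49, 2.92, 0.23, 2.75, 0.75 and 3.03 in DCA hearts 1 to 6, against a sham range of -0.33 to 0.31. DCA heart 3 thus lay inside the sham range, hearts 1 and 5 just above it, and hearts 2, 4 and 6 far above it.

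Sprr1a, a small proline-rich protein induced in stressed heart muscle, was at 0.51, 2.69 and 6.54 FPKM in sham hearts and 2.95, 67.4 and 522 in DCA hearts. Its value was 522 in heart 2, 367 in heart 6 and 119 in heart 4, while heart 3, at 2.95, was within the sham range. The difference was 3.81 (SE 1.07, adjusted p = 0.028), and the call was lost without DCA heart 2, 4 or 6 or sham heart 2, 3 or 5 (adjusted p up to 0.059). Ankrd2, a stretch-responsive ankyrin repeat protein of the sarcomere, went from 0.38, 0.92 and 1.77 to 1.37, 45.9 and 134 FPKM. DCA heart 3 was again the one that overlapped with sham. The difference was 3.54 (SE 0.91, adjusted p = 0.0219), and it missed the threshold only without sham heart 5 (adjusted p = 0.0503). Nmrk2, a kinase of NAD synthesis, was at 5.29, 7.61 and 10.9 FPKM in sham and 11.9, 130.1 and 527 in DCA hearts, with no overlap (difference 3.30, SE 0.92, adjusted p = 0.0273). The threshold was missed without DCA heart 2, 4 or 6, without sham heart 2, 3 or 5, and with array weights (adjusted p up to 0.0813).

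The natriuretic peptides were read with the same spread. Nppa, the atrial natriuretic peptide, was at 136, 398 and 440 FPKM in sham hearts and 375, 1591 and 2975 in DCA hearts. DCA heart 1, at 375, lay within the sham range, and hearts 2, 4 and 6 lay between 2527 and 2975. The difference was 1.96 (SE 0.56, adjusted p = 0.0301), and it was lost without DCA heart 2, 4 or 6 or sham heart 2 or 5, with array weights and with a replicate block (adjusted p up to 0.103). Nppb, the B-type peptide, was at 75.0, 181 and 277 FPKM in sham and 144, 1332 and 2594 in DCA hearts. It did not pass the test (2.04, SE 0.76, adjusted p = 0.0637), as DCA hearts 3 and 5, at 144 and 167, were within the sham range and hearts 2, 4 and 6 were between 2365 and 2594.

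Some genes of contraction and excitation were called lower. Of 24 tested sarcomere and Z-disc genes, 9 were called lower and 2 higher, with a median of -0.40 (-0.11 with array weights). None was called lower without DCA heart 6 or without sham heart 5, and 1 was without DCA heart 2. Myh6, the adult alpha myosin heavy chain, was at 4032, 4489 and 4668 FPKM in sham and 1309, 2774 and 4428 in DCA hearts, which overlap (-0.84, SE 0.28, adjusted p = 0.0442). Its call was lost in 14 of the 20 settings, including without DCA heart 2, 4 or 6 and without any 1 of the sham hearts (adjusted p up to 0.0963). Des, the desmin of the Z-disc, was with Pdlim5 1 of the 2 sarcomere genes called higher: 1027, 1088 and 1125 FPKM in sham against 1067, 2106 and 3973 in DCA hearts (0.92, SE 0.31, adjusted p = 0.0477), also lost in 14 settings, among them without DCA heart 2, 4 or 6 and without any 1 sham heart (adjusted p up to 0.158). The call of Pdlim5, another Z-disc protein, was lost in 14 settings too.

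Of 33 tested ion channel and calcium handling genes, 11 were called lower and 0 higher (median -0.32, or -0.13 with array weights), and 3 without sham heart 5. Kcnip2, the subunit that carries the transient outward potassium current with Kv4 channels, lies on chromosome 19 from 45792346 to 45816422 (GRCm38.p6). It was at 110.4, 118 and 133 FPKM in sham hearts and 11.8, 40.8 and 76.3 in DCA hearts. All DCA hearts were below all sham hearts, with hearts 2, 4 and 6 at 13.3, 20.9 and 11.8 and hearts 1, 3 and 5 at 76.3, 61.7 and 60.7. The difference was -1.90 (SE 0.42, adjusted p = 0.0151). Scn4b, a beta subunit of the cardiac sodium channel, was at 5.56, 7.18 and 8.84 FPKM in sham and 0.26, 1.16 and 6.05 in DCA hearts (-1.67, SE 0.41, adjusted p = 0.019); DCA heart 1 overlapped with sham. Atp2a2, the calcium pump of the sarcoplasmic reticulum, named for its role after its values were seen, was at 2388, 3077 and 3705 FPKM in sham and 894, 1558 and 2556 in DCA hearts (-1.04, SE 0.26, adjusted p = 0.0213), with DCA heart 3 overlapping and the call missed without sham heart 5 (adjusted p = 0.0501).

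**Figure D2:**
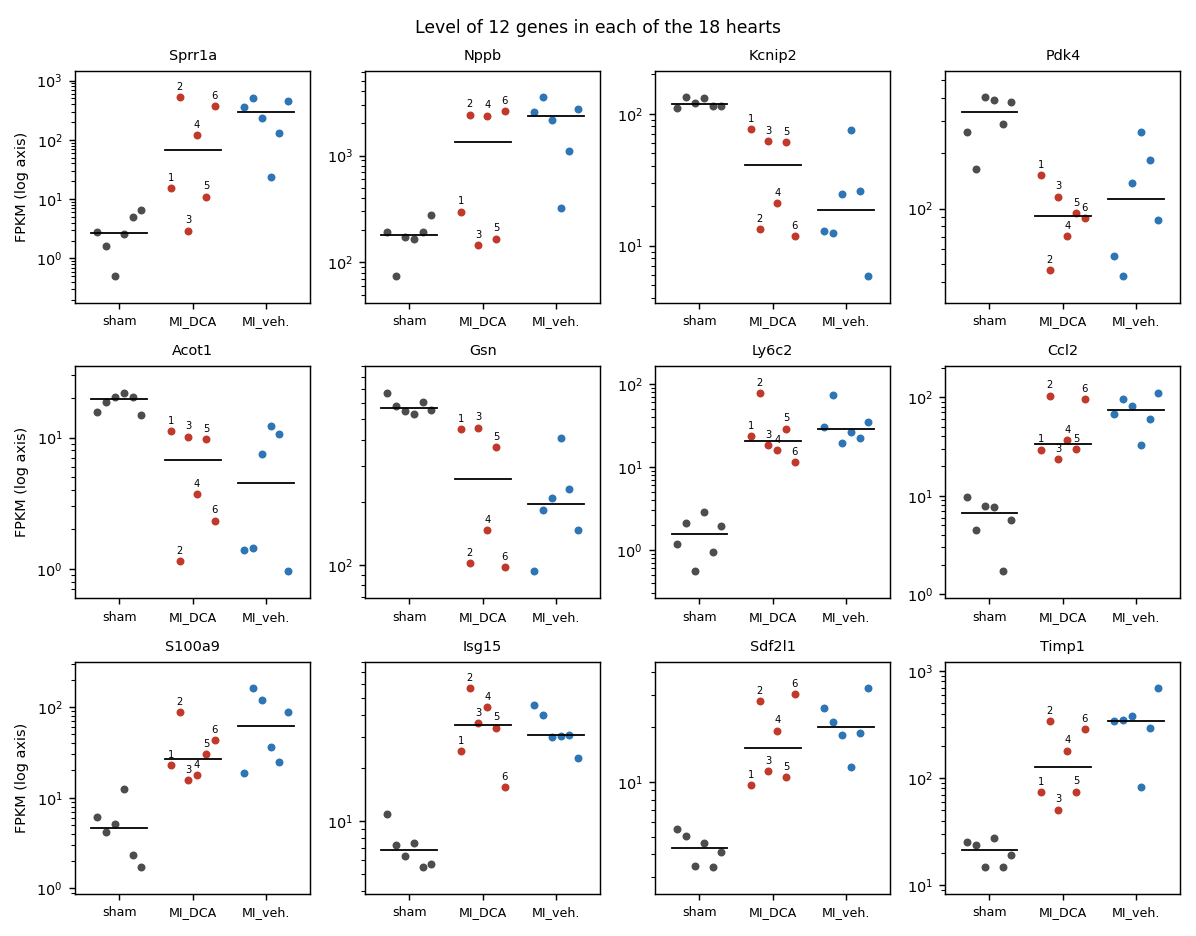
FPKM on a log axis of 12 genes in each of the 18 hearts; points are hearts (grey sham, red DCA, blue infarct with vehicle), numbers mark the DCA hearts and the line is the median of a group. For Sprr1a the DCA hearts run from 2.95 to 522 FPKM and overlap with sham, whereas for Kcnip2 they run from 11.8 to 76.3 and lie below the lowest sham heart at 110.4.

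Of 30 genes of fatty acid uptake and oxidation, all tested, 17 were called lower and 0 higher, with a median of -0.64, and 10 of them lay below all sham hearts. The count was 3 without DCA heart 6 or sham heart 5 and 23 without DCA heart 1. With array weights 10 were called lower and the median was -0.29. Acot1, a cytosolic thioesterase of long-chain acyl-CoA, was at 14.9, 19.5 and 21.8 FPKM in sham and 1.15, 6.69 and 11.2 in DCA hearts. Every DCA heart was below every sham heart, and heart 2, at 1.15, was the lowest (-1.68, SE 0.39, adjusted p = 0.0167). Cd36, the fatty acid transporter of heart muscle and capillaries, was at 652, 748 and 875 FPKM in sham and 313, 522 and 587 in DCA hearts, again without overlap (-0.67, SE 0.16, adjusted p = 0.0188).

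The list of targets of the nuclear receptor PPAR-alpha shares 9 genes with it. Of 17 tested PPAR targets, 11 were called lower and 0 higher (median -0.90, or -0.53 with array weights), and 5 without DCA heart 6. Pdk4, the kinase that holds back pyruvate dehydrogenase and so glucose oxidation, lies on chromosome 6 from 5483351 to 5496278. It was at 164, 333 and 402 FPKM in sham and 46.2, 91.5 and 152 in DCA hearts. The groups did not overlap: the highest DCA value was that of heart 1 and the lowest that of heart 2 (-1.75, SE 0.28, adjusted p = 0.00466). Vldlr, the receptor that takes up triglyceride-rich lipoprotein, was at 43.7, 51.5 and 61.5 FPKM in sham and 11.9, 21.1 and 33.1 in DCA hearts, without overlap (-1.25, SE 0.21, adjusted p = 0.00547). Ppara itself was at 6.19, 9.74 and 11.3 FPKM in sham and 3.99, 6.09 and 6.62 in DCA hearts (-0.59, SE 0.14, adjusted p = 0.0184), and its lowest sham heart, number 1, overlapped with DCA hearts. Ppargc1a, the coactivator of mitochondrial genes, was at 17.8, 23.3 and 25.2 FPKM in sham and 7.55, 13.5 and 15.9 in DCA hearts, without overlap (-0.82, SE 0.16, adjusted p = 0.00983).

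Mitochondrial pathways downstream were called unevenly. Of 23 tricarboxylic acid cycle genes, 13 were called lower (median -0.45, or -0.23 with array weights; 4 without sham heart 5), and of 20 genes of branched-chain amino acid and ketone breakdown, 13 were called lower (median -0.56, or -0.28 with array weights; 5 without sham heart 5), with 0 higher in either list. Dld, the E3 subunit shared by the pyruvate and branched-chain keto acid dehydrogenases, was at 160.0, 188 and 201 FPKM in sham and 90.6, 128 and 141 in DCA hearts, without overlap (-0.59, SE 0.11, adjusted p = 0.00967). Aldh6a1, of valine breakdown, was at 77.4, 88.6 and 94.8 FPKM in sham and 28.8, 49.1 and 64.4 in DCA hearts, also without overlap (-0.92, SE 0.18, adjusted p = 0.0111). Of 42 genes of the respiratory chain and ATP synthase, only Ndufs1, Atp5a1 and Ndufa10 were called, all lower, a share near the 8.33% of all genes. None was called without DCA heart 2, without sham heart 5 or with a replicate block. The median of the list was -0.30, but -0.19 without DCA heart 2 and -0.03 with array weights. The call of Ndufs1 was lost in 8 settings, that of Ndufa10 in 13 and that of Atp5a1 in 14, each of them without DCA heart 2, 4 or 6 or sham heart 2, 3, 5 or 6 (adjusted p up to 0.0604, 0.102 and 0.0956).

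**Figure D3:**
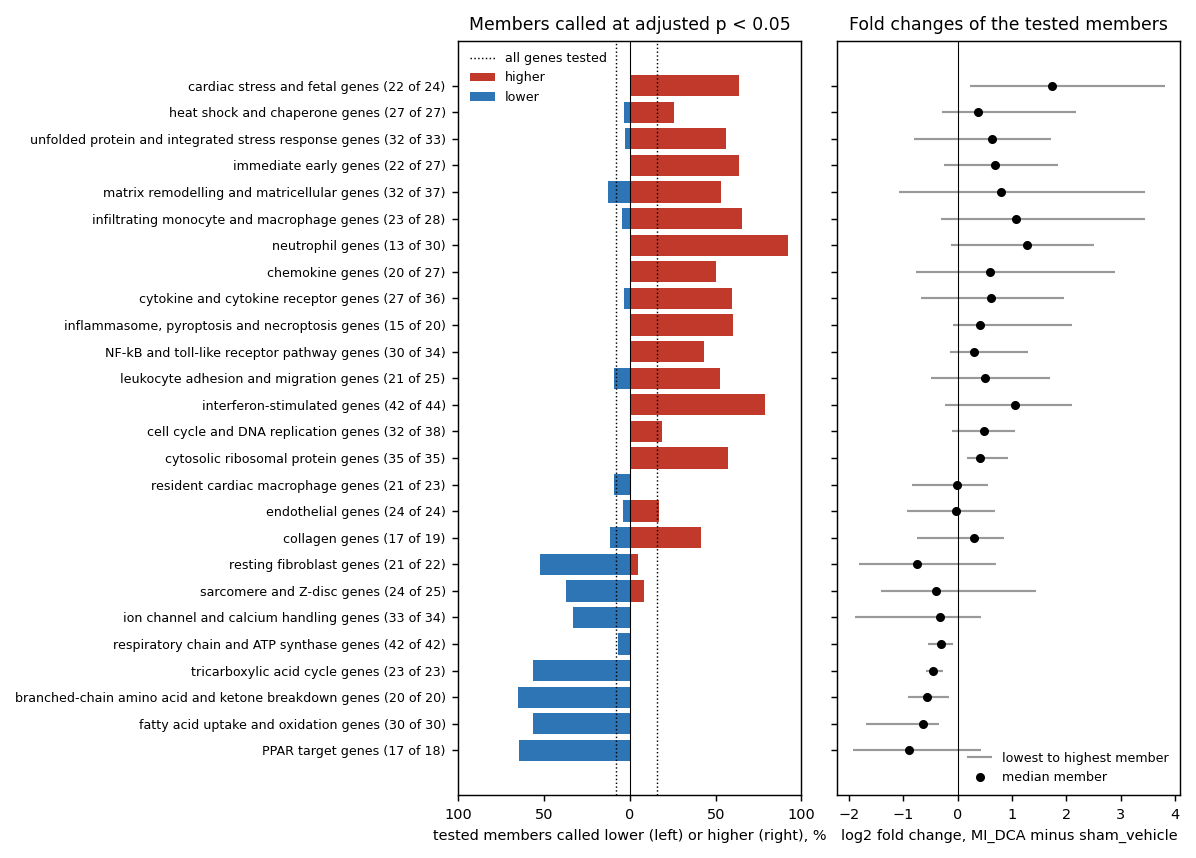
Left, the percent of tested members of 26 gene lists called higher (red) or lower (blue) in DCA hearts, with dotted lines at the percent of all genes tested; right, the median log2 difference of each list (point) and its lowest to highest member (line), with tested and listed members in the row names. The medians run from -0.90 (PPAR targets) to 1.73 (cardiac stress and fetal genes), while the median over all genes is 0.05.

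The sugar-handling genes split. Of 28 tested glycolysis and hypoxia genes, 7 were called higher and 5 lower, and 1 and 0 without sham heart 5. Slc16a3, the lactate exporter MCT4, was at 1.37, 2.07 and 3.12 FPKM in sham and 4.70, 13.3 and 23.5 in DCA hearts, without overlap (1.96, SE 0.37, adjusted p = 0.00878). Hearts 2, 4 and 6 were at 20.6, 23.5 and 20.3 and hearts 1, 3 and 5 at 5.31, 4.70 and 6.30. Slc2a4, the insulin-responsive glucose transporter, was at 203, 232 and 248.8 FPKM in sham and 54.2, 138 and 196 in DCA hearts, also without overlap (-0.94, SE 0.28, adjusted p = 0.0314), with the call lost without DCA heart 4 or 6 or sham heart 2, 3, 4, 5 or 6 (adjusted p up to 0.0681).

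The mean of the infiltrating monocyte and macrophage genes lay above the sham range in all 6 DCA hearts, including those whose stress genes were near sham, although not every member passed the test. Of 28 genes of infiltrating monocytes and macrophages, 23 were tested, 15 were called higher and 1 lower, with a median of 1.07. The lower one, Emilin2, an elastic fibre glycoprotein, lost its call in 13 settings, among them without DCA heart 2, 4 or 6 and without any 1 sham heart (adjusted p up to 0.121). The count of higher calls stayed between 14 and 17 when any heart was left out, and 16 of the 28, including 3 below the filter, lay above all sham hearts. The mean of the list was 1.05, 2.13, 0.57, 0.96, 1.22 and 1.72 in DCA hearts 1 to 6, all above the sham range of -0.44 to 0.26.

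Ly6c2, the surface antigen of inflammatory monocytes, lies on chromosome 15 from 75108161 to 75112066. It was at 0.55, 1.57 and 2.84 FPKM in sham and 11.3, 20.7 and 77.7 in DCA hearts, without overlap. The difference was 3.32 (SE 0.38, adjusted p = 0.00162), and heart 2 stood apart from the other DCA hearts; reads of the near-identical Ly6c1 could be shared with it. Chil3, a chitinase-like protein of monocytes and neutrophils, was at 0.81, 1.4 and 5.44 FPKM in sham and 9.74, 21.3 and 52.1 in DCA hearts, without overlap (3.05, SE 0.42, adjusted p = 0.00297). Spp1, osteopontin, a secreted protein of activated macrophages, was at 2.04, 12.5 and 28.5 FPKM in sham and 44.1, 103.5 and 449 in DCA hearts, without overlap (3.45, SE 0.62, adjusted p = 0.00799). Slfn4, a myeloid schlafen gene outside the list and among the 10 largest rises, was at 0.56, 1.30 and 6.16 FPKM in sham and 11.2, 19.9 and 62.7 in DCA hearts, without overlap (3.09, SE 0.43, adjusted p = 0.00297).

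Adgre1, Csf1r and Lyz2, general macrophage genes that belong to the same infiltrating monocyte and macrophage list, did not pass the test. They are among its 7 tested members that were not called, and do not stand for all general macrophage genes. Adgre1 (F4/80), named for its role after its values were seen like Csf1r and Lyz2, was at 6.20, 7.58 and 9.43 FPKM in sham and 4.84, 8.93 and 12.9 in DCA hearts (0.13, SE 0.18, adjusted p = 0.608). Csf1r, the receptor for macrophage colony-stimulating factor, was at 19.5, 22.0 and 23.3 FPKM in sham and 15.3, 19.0 and 25.7 in DCA hearts (-0.19, SE 0.11, adjusted p = 0.215). Lyz2, lysozyme, was at 199, 223 and 341 FPKM against 175, 243 and 442 (0.16, SE 0.24, adjusted p = 0.624). Of 21 tested genes of resident cardiac macrophages 0 were called higher and 2 lower, the latter a share near the 8.33% of all genes. Their median was -0.02, and their summed FPKM was 445 to 644 in sham and 425 to 745 in DCA hearts. Cd163, the haemoglobin scavenger receptor of resident macrophages, was 1 of the 2: 4.55, 5.20 and 6.95 FPKM in sham against 1.38, 2.73 and 4.15 in DCA hearts, without overlap (-0.84, SE 0.19, adjusted p = 0.0166).

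Of 27 chemokine genes, 20 were tested, 10 were called higher, 0 lower and 10 did not pass, with a median of 0.59 and a lowest difference of -0.76. The number called was 9 or 10 whichever heart was left out. Of the 20 tested, 2 had every sham value under 1 FPKM and passed the filter only through the DCA hearts, so they could hardly be lower. Among the 13 at 1 FPKM or more in all 12 hearts, 5 lay above all sham hearts, against 6.22% of all such genes. Ccl2, the main attractant of CCR2-positive monocytes, was at 1.71, 6.67 and 9.77 FPKM in sham and 23.7, 33.4 and 103.7 in DCA hearts, without overlap (2.79, SE 0.41, adjusted p = 0.00336). Its neighbour Ccl7 on chromosome 11, which shares that receptor, was at 1.96, 7.78 and 10.6 FPKM in sham and 30.7, 41.3 and 103.9 in DCA hearts (2.90, SE 0.39, adjusted p = 0.00261). In both, hearts 2 and 6 were the highest, between 96.3 and 103.9, and the other 4 lay between 23.7 and 44.0. Cxcl1, an attractant of neutrophils that was named after its values were seen, was at 0.82, 1.77 and 3.59 FPKM in sham and 6.76, 9.79 and 12.6 in DCA hearts, without overlap (1.90, SE 0.21, adjusted p = 0.00162). Here the DCA hearts were close together.

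Neutrophil genes were low in FPKM, and 17 of 30 were below the filter. Another 1 passed the filter only through the DCA hearts. Of the 13 tested, 12 were called higher and 0 lower (9 without sham heart 5), with a lowest difference of -0.13; 10 of the 30, 4 of them below the filter, lay above all sham hearts. The summed FPKM of all 30 was 86.2 to 166 in sham and 229 to 391 in DCA hearts. S100a9, a calcium-binding alarmin, was at 1.73, 4.68 and 12.6 FPKM in sham and 15.6, 26.6 and 87.8 in DCA hearts, without overlap (2.50, SE 0.44, adjusted p = 0.00716). Its partner S100a8 was at 1.47, 3.80 and 9.65 FPKM in sham and 7.82, 14.5 and 42.0 in DCA hearts (1.88, SE 0.43, adjusted p = 0.0166); DCA hearts 3 and 4 were below the highest sham heart, number 4. Selp, the P-selectin with which activated endothelium and platelets catch leukocytes, was at 0.45, 0.64 and 0.83 FPKM in sham and 1.47, 4.48 and 9.85 in DCA hearts, without overlap (1.70, SE 0.27, adjusted p = 0.00455). All its sham values were under 1 FPKM, so that Selp passed the filter only through the DCA hearts.

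Of 27 tested cytokine and receptor genes, 16 were called higher, 1 (Il10rb) lower and 10 did not pass. Il1b, the interleukin released by inflammasomes, was at 0.64, 0.99 and 1.39 FPKM in sham and 2.90, 5.72 and 18.5 in DCA hearts, without overlap (1.95, SE 0.32, adjusted p = 0.00537). Il1rn, which blocks its receptor, was at 0.20, 0.42 and 0.69 FPKM against 1.18, 2.71 and 10.4, also without overlap (1.62, SE 0.31, adjusted p = 0.00968). As all its sham values were under 1 FPKM, Il1rn passed the filter only through the DCA hearts. Socs3, the feedback inhibitor induced by IL-6 type cytokines, was at 3.03, 4.99 and 5.96 FPKM against 9.62, 15.5 and 34.6, without overlap (1.69, SE 0.27, adjusted p = 0.00457). In addition, 13 of 30 genes of the NF-kB and toll-like receptor pathway were called higher and 0 lower, 7 without sham heart 5. Among these 30, 1 passed the filter only through the DCA hearts.

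Several cytokines fell below the filter and were tested 1 by 1 with an exact permutation test (two-sided, 6 hearts against 6), which cannot give a p smaller than 0.00216. Among 214 list members so tested, 24 were higher and 5 lower at a Benjamini-Hochberg adjusted p under 0.05. Il6 was at 0.09, 0.24 and 0.30 FPKM in sham and 0.45, 1.91 and 5.02 in DCA hearts (exact permutation p = 0.00216, adjusted 0.0308). Tnf was at 0.06, 0.33 and 0.48 FPKM in sham and 0.71, 0.84 and 1.25 in DCA hearts (exact permutation p = 0.00216, adjusted 0.0308). For both, every DCA heart was above every sham heart. Nlrp3, the inflammasome sensor, was at 0.22, 0.37 and 0.57 FPKM in sham and 0.57, 0.95 and 1.87 in DCA hearts, which touch at 0.57 (exact permutation p = 0.00433, adjusted 0.0441).

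The mean of the interferon-stimulated genes did not follow that of the stress genes from heart to heart. All 42 members in the files were tested; 33 were called higher and 0 lower, with a median of 1.05, and 16 lay above all sham hearts. The count of higher calls was 28 without sham heart 5 and 37 without DCA heart 6. Among the 42, 1 (Cxcl10) passed the filter only through the DCA hearts. The mean of the list was 1.03, 1.48, 1.37, 1.10, 1.41 and 0.15 in DCA hearts 1 to 6, against a sham range of -0.27 to 0.27. DCA heart 6, which had the highest stress genes, was the only one within the sham range, while DCA heart 3, whose stress genes were within the sham range, was among the highest.

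**Figure D4:**
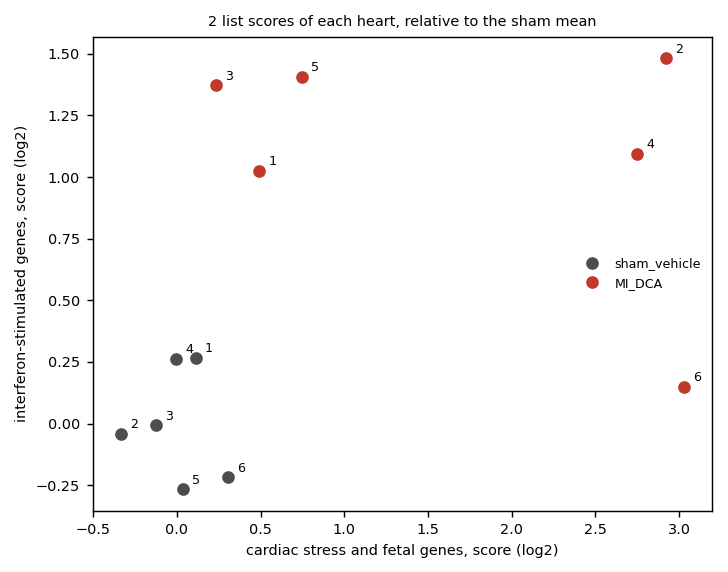
Mean of the cardiac stress list (x axis) and of the interferon list (y axis) in each of the 12 hearts, both on the log2(FPKM + 1) scale relative to the sham mean; numbers mark the replicates. DCA heart 3 sits at 0.23 and 1.37, DCA heart 6 at 3.03 and 0.15, and the sham hearts lie around 0 on both axes.

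Isg15, a ubiquitin-like modifier, was at 5.47, 6.79 and 11 FPKM in sham and 15.6, 35.0 and 56.7 in DCA hearts, without overlap (2.07, SE 0.26, adjusted p = 0.00189). The lowest DCA heart was number 6. Zbp1, the sensor of Z-form nucleic acid that leads to necroptosis, was at 1.59, 2.58 and 4.54 FPKM in sham and 7.43, 16.4 and 25.5 in DCA hearts, without overlap (2.10, SE 0.25, adjusted p = 0.00187). Cxcl10, an attractant of CXCR3-bearing lymphocytes, was at 0.18, 0.59 and 0.85 FPKM in sham and 1.78, 4.84 and 16.1 in DCA hearts, without overlap (2.06, SE 0.36, adjusted p = 0.00685). Here hearts 2 and 4 were the highest and heart 1 the lowest. Every sham value was under 1 FPKM, so that Cxcl10 passed the filter only through the DCA hearts. Ifitm3, a membrane protein that blocks viral entry, was at 150.1, 216 and 321 FPKM in sham and 484, 539 and 702 in DCA hearts, without overlap (1.38, SE 0.16, adjusted p = 0.00169). Oas1a, an oligoadenylate synthetase whose reads may be shared with its near-copy Oas1g, was at 3.89, 5.08 and 6.75 FPKM in sham and 13.1, 18.6 and 30.0 in DCA hearts, without overlap (1.67, SE 0.19, adjusted p = 0.00162).

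Not every interferon-responsive gene moved. Irf7, the regulator that amplifies type I interferon, was at 13.5, 15.8 and 30.1 FPKM in sham and 23.3, 81.4 and 104.5 in DCA hearts (1.84, SE 0.34, adjusted p = 0.00807), and only DCA heart 6 overlapped with sham. Irf1 and Cxcl9, which respond mainly to interferon gamma, did not pass the test. Irf1 was at 13.8, 16.7 and 19.0 FPKM against 13.3, 20.3 and 22.9 (0.20, SE 0.13, adjusted p = 0.253), and Cxcl9 at 2.65, 3.42 and 4.84 against 1.73, 2.88 and 4.12 (-0.24, SE 0.17, adjusted p = 0.314). Irf7, Irf1 and Cxcl9 were named for their role after their values were seen, and Irf1 and Cxcl9 do not stand for all genes that interferon gamma induces. Among GTPases of the interferon list, Igtp, Irgm1 and Gbp7 were called higher, while Irgm2, Gbp2, Gbp3 and Gbp5 were not called.

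The interferon genes were also examined for the interferon-stimulated response element (ISRE), a sequence known from promoters of such genes, since they moved together. Its core, searched on both strands as GAAA, any 2 bases and GAAA again, occurred in 1131 of 32851 RefSeq promoters of mouse (3.44%), taken from 250 bases before to 50 after each start, and in 3.84% of those of the genes tested. Among interferon genes with a promoter in that table, it occurred in 16 of the 27 called higher (59.3%) and in 5 of the 8 not called. Of the 3 motifs searched, the other two were an E2F site in cell cycle genes, described below, and the D-box in clock genes, which occurred in 0 of 2 called and 1 of 13 not called clock genes and in 1.06% of all promoters. The 250 bases before the start of 3 of them are printed 5′ to 3′ on the gene's strand from GRCm38.p6, with each match to the core in capitals (TTTC where it lies on the opposite strand): Isg15 at chr4:156200819-156201068 (minus strand, 3 matches), Ifit1 at chr19:34640639-34640888 (plus strand, 2 matches) and Cxcl10 at chr5:92348890-92349139 (minus strand, 1 match). They show cores that overlap one another, cores read on the opposite strand, and a single core near the far end of the window.
Isg15: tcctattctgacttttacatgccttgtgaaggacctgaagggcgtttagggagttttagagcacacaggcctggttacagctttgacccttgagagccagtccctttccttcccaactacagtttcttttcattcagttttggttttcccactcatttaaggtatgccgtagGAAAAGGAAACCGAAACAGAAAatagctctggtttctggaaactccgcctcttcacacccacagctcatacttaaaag
Ifit1: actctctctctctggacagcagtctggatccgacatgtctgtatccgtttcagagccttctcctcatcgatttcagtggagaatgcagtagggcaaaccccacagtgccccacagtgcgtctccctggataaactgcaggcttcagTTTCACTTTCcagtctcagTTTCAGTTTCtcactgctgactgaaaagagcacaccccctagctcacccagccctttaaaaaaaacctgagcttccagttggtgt
Cxcl10: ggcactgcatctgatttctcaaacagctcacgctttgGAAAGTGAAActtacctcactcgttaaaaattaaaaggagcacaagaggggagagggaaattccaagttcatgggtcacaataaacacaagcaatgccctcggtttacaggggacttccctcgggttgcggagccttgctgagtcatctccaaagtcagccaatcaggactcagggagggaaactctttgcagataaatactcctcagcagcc

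Ifit1, an interferon-induced RNA-binding protein chosen for display after its values were seen, was at 3.35, 4.77 and 6.37 FPKM in sham and 6.40, 21.1 and 27.3 in DCA hearts (1.66, SE 0.28, adjusted p = 0.00592). Its lowest DCA heart, number 6 at 6.40, was just above the highest sham heart, and its highest was number 3. Isg15, with 3 matches, and Cxcl10, with 1, had differences of 2.07 and 2.06, but that of Cxcl10 is understated more by its low sham FPKM. A link between the number of matches and the size of a difference was not tested. A match is a description of the letters, not evidence of binding.

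Of 37 matrix remodelling genes, 32 were tested, 17 were called higher, 4 lower and 11 did not pass, with a median of 0.79 (0.52 with array weights). Without DCA heart 2 there were 11 higher, and without DCA heart 6 there was 1 lower. The share called lower was not far from the 8.33% of all genes. Among the 32 tested, 1 passed the filter only through the DCA hearts. Timp1, the secreted inhibitor of metalloproteinases, lies on chromosome X from 20870166 to 20874737. It was at 14.8, 21.4 and 27.2 FPKM in sham and 50.6, 127 and 340 in DCA hearts, without overlap (2.63, SE 0.43, adjusted p = 0.00511). Hearts 2, 6 and 4 were the highest, at 340, 288 and 180, and heart 3 the lowest. Adam8, a leukocyte sheddase, was at 0.55, 1.12 and 1.43 FPKM in sham and 4.53, 7.16 and 26.3 in DCA hearts, without overlap (2.35, SE 0.36, adjusted p = 0.00395). Timp2 was among the 4 called lower: 51.4, 55.8 and 58.2 FPKM against 24.4, 35.3 and 48.4, without overlap (-0.67, SE 0.17, adjusted p = 0.0205).

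Of 21 tested genes of resting fibroblasts, 11 were called lower, 1 higher and 9 did not pass, with a median of -0.75. Without DCA heart 4 only 1 lower call was left, and with array weights 2 were left and the median was -0.30. The higher one, Mfap5, a microfibril protein, lost its call without DCA heart 6 or sham heart 2 (adjusted p up to 0.0504). Gsn, gelsolin, an actin-severing protein abundant in these cells, was at 534, 566 and 671 FPKM in sham and 97.9, 258 and 457 in DCA hearts, without overlap (-1.4, SE 0.38, adjusted p = 0.0266). It was not called without DCA heart 2, 4 or 6 or sham heart 2 or 5, nor with array weights (adjusted p up to 0.0564). The main fibrillar collagens did not pass the test. Col1a1 was at 70.7, 105 and 175 FPKM in sham and 78.3, 113 and 157 in DCA hearts (0.15, SE 0.23, adjusted p = 0.622), and Col3a1 at 112, 158 and 223 against 84.4, 138 and 170 (-0.27, SE 0.20, adjusted p = 0.299). Both were named for their role after their values were seen. Of 17 tested collagens 7 were called higher and 2 lower, the latter a share not far from the 8.33% of all genes. Without DCA heart 6, 2 were called higher.

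In every DCA heart the mean of the genes of protein folding stress in the endoplasmic reticulum lay above the sham range. In the list of the unfolded protein response and the integrated stress response, 32 genes were tested, 18 were called higher, 1 lower and 13 did not pass, with a median of 0.63, and 15 lay above all sham hearts. The count of higher calls was 15 to 23 when 1 heart was left out. The lower one, Herpud1, of the degradation of misfolded proteins, lost its call in 10 settings, among them without DCA heart 2, 4 or 6 and without sham heart 1, 2, 3, 4 or 5 (adjusted p up to 0.154). The mean of the list was 0.38, 0.99, 0.30, 0.86, 0.31 and 0.99 in DCA hearts 1 to 6, against -0.02 to 0.02 in sham. Sdf2l1, a cofactor of the chaperone BiP, was at 3.42, 4.37 and 5.54 FPKM in sham and 9.60, 15.3 and 30.3 in DCA hearts, without overlap (1.72, SE 0.26, adjusted p = 0.00391). Manf, a secreted protein induced by stress of that compartment, was at 13.4, 15.1 and 20.1 FPKM against 27.1, 46.6 and 88.2, without overlap (1.51, SE 0.28, adjusted p = 0.00839). Pdia6, a disulfide isomerase, was at 42.7, 49.9 and 53.5 FPKM against 83.1, 98.2 and 137, without overlap (1.07, SE 0.13, adjusted p = 0.00169). Hspa5 (BiP), named for its role after its values were seen, was at 146, 182 and 229 FPKM against 237, 358 and 462, also without overlap (0.89, SE 0.20, adjusted p = 0.016).

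Of 22 tested immediate early genes, 14 were called higher and 0 lower (median 0.69, or 0.42 with array weights; 8 without sham heart 5). Atf3, a stress-induced transcription factor, was at 1.26, 2.39 and 3.22 FPKM in sham and 4.48, 10.7 and 24.6 in DCA hearts, without overlap (1.84, SE 0.38, adjusted p = 0.0116). Myc, a driver of growth and ribosome synthesis, was at 2.59, 4.53 and 4.99 FPKM against 5.85, 12.7 and 29.7, without overlap (1.46, SE 0.35, adjusted p = 0.0183). Of 35 cytosolic ribosomal protein genes, whose processed pseudogenes can share reads with them, 20 were called higher and 0 lower (median 0.41, or 0.27 with array weights), but 3 without sham heart 5. Rpl3 was at 153, 161 and 178 FPKM in sham and 217, 306 and 501 in DCA hearts, without overlap (0.93, SE 0.20, adjusted p = 0.013). Of 27 heat shock and chaperone genes, 7 were called higher and 1 lower, and 1 higher without DCA heart 4. Cryab, the small heat shock protein of the Z-disc, was at 1987, 2097 and 2324 FPKM in sham and 2509, 5454 and 10841 in DCA hearts, without overlap (1.26, SE 0.33, adjusted p = 0.0236); the call was lost without DCA heart 4 or sham heart 5 (adjusted p up to 0.0524).

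Of 32 tested cell cycle and replication genes, 6 were called higher and 0 lower, with a median of 0.49 (0.26 with array weights). The share called higher was not far from the 15.5% of all genes. The count was 2 without DCA heart 6 and 16 without DCA heart 3. Mcm5, of the replicative helicase, was at 1.47, 1.97 and 2.42 FPKM in sham and 3.01, 3.67 and 9.32 in DCA hearts, without overlap (0.92, SE 0.22, adjusted p = 0.0184). Mcm6, of the same helicase, was at 3.91, 4.39 and 5.28 FPKM against 4.76, 8.39 and 19.1, with DCA heart 3 overlapping (0.85, SE 0.26, adjusted p = 0.0346). It was not called in 12 settings, among them without DCA heart 2, 4 or 6 and without any 1 sham heart (adjusted p up to 0.0809). An E2F site, TTTGGCGC, TTTCGCGC or TTTCCCGC on either strand, occurred in 606 of the 32851 promoters (1.84%) and in 3.98% of those of tested genes. It was present in 5 of the 6 called cell cycle genes (83.3%) and in 2 of the 18 not called that had a promoter in the table. The 250 bases before the start of Mcm6, at chr1:128359706-128359955 on the minus strand of GRCm38.p6 from RefSeq, are printed 5′ to 3′ with its 3 matches in capitals, 2 of which overlap on opposite strands, as an example of these sites.
Mcm6: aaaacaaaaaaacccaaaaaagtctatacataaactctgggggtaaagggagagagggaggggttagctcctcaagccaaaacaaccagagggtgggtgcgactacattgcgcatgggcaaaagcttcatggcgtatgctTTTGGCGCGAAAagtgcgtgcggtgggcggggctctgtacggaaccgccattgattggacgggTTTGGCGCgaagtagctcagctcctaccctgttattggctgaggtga

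Genes of the bile acid pathway itself were mostly too low to test. Gpbar1 (TGR5), the receptor the study is about, was listed at 0 in 4 of 6 sham hearts and reached 0.20 FPKM there, and was at 0, 0.22 and 0.56 FPKM in DCA hearts (exact permutation p = 0.0649, adjusted 0.18). Nr1h4 (FXR), the nuclear bile acid receptor, was at 0.39, 0.49 and 0.80 FPKM in sham and 0.06, 0.24 and 1.05 in DCA hearts (exact permutation p = 0.162, adjusted 0.361). Of 24 genes of bile acid sensing and handling, 9 were tested, 1 was called higher and 1 lower. With so few tested, these shares are not far from the 15.5% and 8.33% of all genes, and say nothing about the list. Cyp27a1, the mitochondrial sterol hydroxylase of the acidic bile acid pathway, was at 16.8, 18.2 and 20.2 FPKM in sham and 4.74, 9.56 and 15.4 in DCA hearts, without overlap (-0.96, SE 0.24, adjusted p = 0.0214). Abcc3, an exporter of bile acid conjugates, was at 0.78, 0.90 and 1.06 FPKM against 0.97, 1.76 and 2.14, with DCA heart 4 overlapping (0.48, SE 0.11, adjusted p = 0.015). Of 31 tested genes of cAMP, CREB and adrenergic signalling, 5 were called higher and 4 lower (2 and 1 at the lowest, without DCA heart 4 and without DCA heart 2), with a median of 0.03 that changes sign under the other scalings. The share called higher was near the 15.5% of all genes, the share called lower above their 8.33%.

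**Figure D5:**
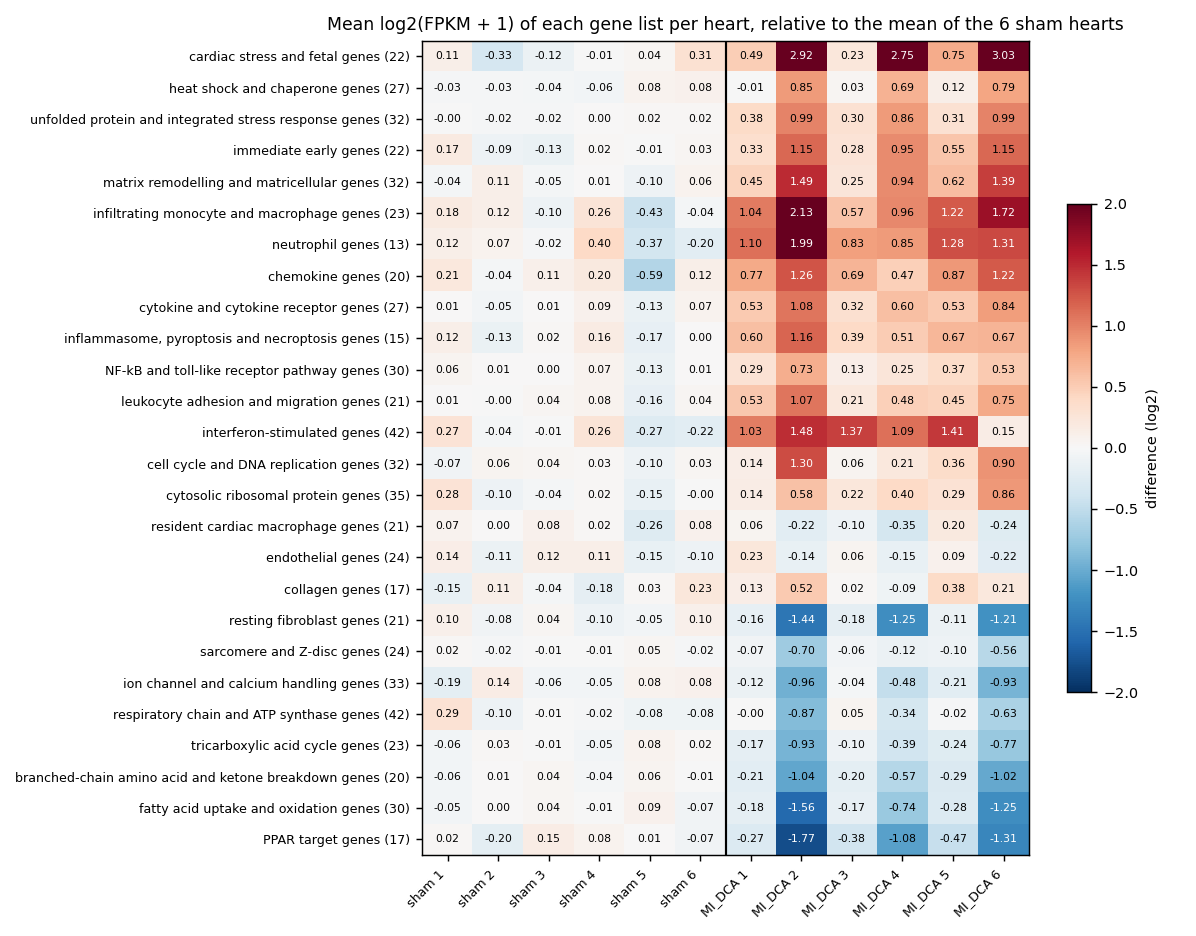
Mean log2(FPKM + 1) of 26 gene lists (rows, with the number of members tested) in each sham and DCA heart (columns), relative to the mean of the 6 sham hearts, as a number and a colour that saturates at 2. Over all 48 lists scored this way, in 13 all 6 DCA hearts lie above the sham range, in 7 all lie below it, and in 41 the DCA hearts have the larger SD.

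Markers of other cells that an apex sample can hold were examined beside these groups, and their part in the differences was not tested. Of 24 endothelial genes, 4 were called higher, a share near the 15.5% of all genes (2 without DCA heart 2), and 1 lower (Cd36), with summed FPKM of 3154 to 4570 in sham and 2520 to 3836 in DCA hearts. Of 18 smooth muscle and pericyte genes 3 were called in each direction. The share called higher was near the 15.5% of all genes, the share called lower above their 8.33%. Abcc9, a pericyte and muscle potassium channel subunit among those called lower, was at 55.3, 64.3 and 68.4 FPKM in sham and 18.2, 32.2 and 50.9 in DCA hearts, without overlap (-1.05, SE 0.23, adjusted p = 0.0153). Of 6 tested erythroid genes 0 were called, with sums of 369 to 2115 FPKM in sham and 361 to 710.0 in DCA hearts, the highest being that of 1 sham heart. Of 21 lymphocyte and NK cell genes 1 passed the filter and was not called, and their sums were 6.11 to 12.1 FPKM in sham and 6.68 to 16.6 in DCA hearts. Of 2 tested platelet genes, Ppbp was called higher: 0.63, 1.28 and 2.13 FPKM in sham against 2.29, 4.48 and 9.08, without overlap (1.31, SE 0.26, adjusted p = 0.0101). The defining surfactant genes of lung, Sftpc and Sftpd, were listed at 0 in all 12 hearts. Of the 8 lung genes in the files only Napsa was tested, and it was called higher, with a difference of 1.12. It ran from 0.51 to 1.61 FPKM in sham and from 1.48 to 7.31 in DCA hearts, which overlap. The summed FPKM of the lung genes was 0.97 to 3.70 in sham and 2.48 to 9.07 in DCA hearts.

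To see what the drug added to the infarct, DCA hearts were compared with the 6 infarcted hearts given vehicle. Of 12004 genes at 1 FPKM or more in at least 6 of those 12 hearts, limma called 0 (0.0%), with a smallest adjusted p of 0.301. At an unadjusted p under 0.05 there were 192 genes higher and 1107 lower in DCA hearts, and the median difference was -0.065. The count depends on how the hearts are weighted: limma's array weights called 1623 higher and 3747 lower, and without vehicle-treated infarcted heart 5 there were 0 higher and 1 lower. The weights were 2.47, 1.66 and 2.5 for DCA hearts 1, 3 and 5, but 0.275, 0.592 and 0.312 for hearts 2, 4 and 6. Vehicle-treated infarcted heart 4 had 0.357. The weighted counts thus rest mainly on the DCA hearts closest to sham, and do not describe the 6 DCA hearts equally.

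The values of the genes described above lay side by side with a wide overlap. Timp1 was at 81.7, 342 and 686 FPKM in vehicle-treated infarcted hearts, against 50.6, 127 and 340 in DCA hearts (-1.19, unadjusted p = 0.052). Nppa was at 771, 3687 and 7037 FPKM in vehicle-treated infarcted hearts, against 375, 1591 and 2975 in DCA hearts (-1.41, unadjusted p = 0.0505). Slc16a3 was at 6.19, 30.4 and 66.0 FPKM there, against 4.70, 13.3 and 23.5 (-1.18, unadjusted p = 0.0447). Il1b was at 5.37, 11.4 and 34.0 FPKM there, against 2.90, 5.72 and 18.5 (-0.75, unadjusted p = 0.129). Isg15, at 22.9, 30.7 and 45.6 FPKM there against 15.6, 35.0 and 56.7, had a difference of 0.01 (unadjusted p = 0.983). None of these 5 differences passed the adjusted test, and a p that misses the threshold does not show that the drug had no effect on them.

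By list, all 23 tested monocyte and macrophage genes had a lower mean in DCA hearts than in vehicle-treated infarcted hearts (median -0.56), as did all 35 ribosomal protein genes (-0.24) and all 32 cell cycle genes (-0.51). All 42 respiratory chain genes had a higher mean (0.31), as did all 20 genes of branched-chain amino acid and ketone breakdown (0.29) and all 23 tricarboxylic acid cycle genes (0.24). Interferon genes were split, 22 of 42 lower with a median of -0.02. Over all 12004 genes tested the median difference was -0.065, so a lower mean was the more common direction in general. Members of a list come from the same hearts and are not replicates, so these counts describe 6 hearts against 6. No member of any list was called, and an effect of the drug on a list was not tested. Of the genes with a higher mean in DCA hearts, the smallest p belonged to Ramp2, a partner of the adrenomedullin receptor, at 60.6, 78.0 and 85.8 FPKM in vehicle-treated infarcted hearts and 85.1, 102 and 118 in DCA hearts (0.42, unadjusted p = 0.00126), which overlap. Among the 5 smallest p-values for lower genes was that of Sin3b, a corepressor scaffold, at 36.4, 39.0 and 41.1 FPKM in vehicle-treated infarcted hearts and 28.2, 31.0 and 33.1 in DCA hearts (-0.34, unadjusted p = 0.000175). Id2, an inhibitor of basic helix-loop-helix factors, was at 14.6, 17.0 and 19.3 FPKM against 8.71, 11.8 and 13.3 (-0.57, unadjusted p = 0.000316), and H2-Eb1, an MHC class II beta chain, at 22.8, 29.1 and 32.8 against 10.3, 19.1 and 20.2 (-0.75, unadjusted p = 0.000446). In Sin3b, Id2 and H2-Eb1 the 2 infarct groups did not overlap, while DCA and sham hearts did. As these genes were picked by their small p in this same comparison, the lack of overlap adds no evidence. Neither they nor Ramp2 passed the adjusted test, in which the smallest limma adjusted p of any gene was 0.301.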

How the data were processed

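Apex RNA of 18 mouse hearts was sequenced, and the 12 libraries of the sham and DCA groups are the subject here, with the 6 of the infarct group given vehicle as a control. The authors deposited 1 table per library with 19197 genes and their expression in FPKM; per the submitters' processing notes Bowtie2 2.2.5, RSEM 1.2.12, DESeq2 1.4.5 and GRCm38.p6 were used, with no role given. FPKM are not counts, so no count test was run; reads per library were estimated from the spacing of low values and are approximate. Of the gene IDs, 19051 (99.2%) matched the RefSeq table, and 26 symbols that a spreadsheet had turned into dates were restored by ID. Genes at 1 FPKM or more in at least 6 of the 12 libraries were tested on log2(FPKM + 1) with limma 3.58.1 (R 4.3.3, intensity trend), fitting the compared groups alone, with Benjamini-Hochberg adjustment. List members below the filter were tested by exact permutation. The 20 alternatives were 2 scalings, a pseudocount of 0.1, no filter or a filter on the mean, a fit of all 18 libraries, array weights, a replicate block and each of the 12 libraries left out. The genes named are the 10 largest rises and the 10 largest falls at a mean of 10 FPKM or more, up to 3 called genes per list and called members that moved against the direction of their list, 13 genes fixed for the study's subject, the 5 smallest p-values in each direction against the vehicle-treated infarct, and, added after the values were seen, the 5 smallest p-values in each direction against sham and genes marked as such. Members and lists were chosen with earlier results of these data known. The fit was tested on 1 simulated data set per comparison that kept the SD of each gene in each group. Of the 11842 genes, 50 were changed by 0.5, 100 by 1 and 50 by 2, and the noise was normal and independent between genes. In the real data 23.8% of genes were called and hearts differed in many genes at once. The rates that follow therefore hold for that setting and do not measure the error of the real calls. For simulated DCA against sham, 10.4% of its calls were false, more than an adjusted p under 0.05 aims at. It found 54% of simulated log2 changes of 0.5, 86% of those of 1 and 100% of those of 2. For simulated DCA against the vehicle-treated infarct, 5% of calls were false. Replicate numbers come from the sample titles, which do not say that a number marks a shared animal or day. Promoters are those of RefSeq on GRCm38.p6.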

Additional observations from a re-analysis of the deposited data

Results flagged for a closer look

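In 4 of 62 groups of 6 hearts, over 31 genes examined, 1 heart lay far from the rest by Dixon's criterion; chance gives about 1 in 20 groups. Ly6c2 was 77.7 FPKM in DCA heart 2, while the other 5 DCA hearts were at 11.3 to 28.8. Slfn4 was 62.7 FPKM in the same heart, while the others were at 11.2 to 28.3. Ppara was 3.99 FPKM in that heart as well, below the 5.74 to 6.62 of the others. Myh6 was 4032 FPKM in sham heart 1, below the 4430 to 4668 of the other sham hearts. All 4 genes were called in the direction given above, Myh6 with losses.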

How the results depend on the processing

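No called gene changed sign in any of the 20 alternatives. Counts of genes higher and lower in DCA hearts against sham, 1830 and 987, became 741 to 2623 and 319 to 1496 when 1 heart was left out: they fell by over 1.5 times without DCA heart 2 (905 and 389), 4 (1019 and 357) or 6 (876 and 332) and without sham heart 2 (888 and 387), 3 (1021 and 457), 4 (1158 and 514), 5 (741 and 319) or 6 (1078 and 484), and the lower count rose without DCA heart 3 (1496). Array weights gave 565 lower, quantile normalization 1554 lower. With a replicate block the counts were 1124 and 572; the numbers did not pair the hearts (r of deviations -0.10 to 0.23, no heart closest to its own number), so this shows no weaker effect. Against vehicle-treated infarcted hearts, where 0 were called, array weights gave 1623 higher and 3747 lower, and leaving out 1 heart gave 0 to 1 lower (1 without vehicle-treated infarcted heart 5) and 0 higher. Those weights were larger for DCA hearts 1, 3 and 5 than for hearts 2, 4 and 6. The causes were not tested. Of 179 named called genes, 99 (without sham heart 5) to 178 (without DCA heart 3) kept their call when 1 heart was left out, 170 with median-ratio scaling, 168 with quantile normalization, 122 with array weights and 135 with the block. Below 1 FPKM the depth limits what can be seen: a gene listed at 0, such as Gpbar1 in sham hearts, may still be expressed.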

Other observations

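Of 16 tested genes of blood clotting and clot lysis, 7 were called higher, 0 lower and 9 did not pass, with 2 called without sham heart 2 and 3 with array weights. Plaur, the receptor that focuses urokinase on the cell surface, was at 1.21, 2.15 and 2.83 FPKM in sham and 3.4, 12.1 and 24.1 in DCA hearts, without overlap (1.78, SE 0.43, limma adjusted p = 0.0184). Anxa2, a surface assembly site for plasmin formation, was at 59.6, 64.3 and 65.6 FPKM against 81.1, 157 and 350.4, without overlap (1.36, SE 0.33, limma adjusted p = 0.0184). Of 19 tested complement genes 6 were called higher and 5 lower, the latter 0 without DCA heart 4; Itgam, the alpha chain of complement receptor 3 on myeloid cells, was at 2.89, 5.10 and 6.34 FPKM in sham and 6.90, 11.5 and 20.8 in DCA hearts (1.14, SE 0.22, limma adjusted p = 0.00966), while C3, the central complement protein, was at 62.9, 72.5 and 103.3 FPKM against 18.1, 33.4 and 65.2 (-1.19, SE 0.32, limma adjusted p = 0.0239), with DCA heart 1 overlapping and the call lost without DCA heart 4 or 6, without sham heart 5 and with array weights (adjusted p up to 0.0731).

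Some of the smallest p-values belonged to genes of moderate change and small spread. Slfn2, a schlafen gene of lymphoid and myeloid cells, had the smallest: 7.12, 8.89 and 10.7 FPKM in sham and 20.01, 24.5 and 40.02 in DCA hearts, without overlap (1.46, SE 0.14, limma adjusted p = 0.00146). Trf, the iron carrier transferrin, was at 15.7, 21.4 and 27.4 FPKM against 6.65, 10.01 and 14.97, without overlap (-1.03, SE 0.17, limma adjusted p = 0.00537); in vehicle-treated infarcted hearts it was at 10.99, 16.1 and 20.4. Optn, an autophagy receptor, was at 31.6, 35.5 and 48.1 FPKM against 15.8, 19.6 and 26.9, without overlap (-0.88, SE 0.14, limma adjusted p = 0.00492). Tubb3, the beta-tubulin best known from neurons, was at 0.78, 1.80 and 2.67 FPKM against 4.15, 6.56 and 11.3, without overlap (1.5, SE 0.22, limma adjusted p = 0.0032).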
